A study of Mus musculus with 2 samples.

Results

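The Hox genes encode homeodomain transcription factors and lie in 4 clusters of the mouse genome, named Hoxa to Hoxd. The members described here are the protein-coding genes of the RefSeq annotation of GRCm38 (mm10) whose symbols start with Hoxa, Hoxb, Hoxc or Hoxd and a number, 39 of 21887 protein-coding genes. Each cluster was taken from its first to its last Hox gene plus 10 kb on either side, which gave 572097 bp in all. These stretches held 33 of the 48026 peaks of replicate 1 and 29 of the 46950 peaks of replicate 2.

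The peaks come from chromatin immunoprecipitation and sequencing of histone H3 trimethylated at lysine 4 (H3K4me3) in MEL cells, an immortalised mouse erythroleukaemia line that the labels call an analog of K562. Both samples were MEL cells exposed to 2% dimethyl sulfoxide (DMSO), an agent used to make these cells mature, over 5 days, and they are labelled biological replicates 1 and 2 of a single group. Cells without DMSO were not analysed here, so nothing below measures an effect of the treatment, and MEL is 1 line. Every error below is a standard deviation over these 2 samples, and with n = 2 and 1 group no test was made.

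Hox genes set positional identity along the body axis. In each cluster the genes run in the order of their expression from head to tail, paralogs 1 to 4 being anterior and 10 to 13 posterior. H3K4me3 marks the 5' ends of active and poised genes. At Hox genes it is laid down by the trithorax-type methyltransferases of the MLL family, while Polycomb complexes methylate lysine 27 of the same histone and hold the genes silent. In blood, genes of the Hoxa and Hoxb clusters are active in stem and progenitor cells and are turned down as the cells mature, and Hoxa9 with its cofactor Meis1 is a well-known driver of myeloid leukaemia.

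The stretches of sequence printed here carry the patterns described below, and their CpG dinucleotides are in capitals because CpG-rich DNA is the usual seat of H3K4me3. The first 3 are the 250 bases before a 5' end in RefSeq GRCm38.p6, written 5' to 3' on the gene's strand. They belong to Hoxc4 at chr15:103034145-103034394 (plus strand), which was covered by a peak over its whole length in both replicates, to Hoxd8 at chr2:74704365-74704614 (plus strand), which was covered over 136 bases in replicate 2 and over 0 bases in replicate 1, and to Hoxa13 at chr6:52260881-52261130 (minus strand), which was covered in neither.
Hoxc4: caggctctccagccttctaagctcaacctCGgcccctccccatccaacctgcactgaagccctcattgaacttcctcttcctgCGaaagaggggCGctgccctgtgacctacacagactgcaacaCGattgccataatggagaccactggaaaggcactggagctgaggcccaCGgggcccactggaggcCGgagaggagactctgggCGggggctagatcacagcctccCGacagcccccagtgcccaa
Hoxd8: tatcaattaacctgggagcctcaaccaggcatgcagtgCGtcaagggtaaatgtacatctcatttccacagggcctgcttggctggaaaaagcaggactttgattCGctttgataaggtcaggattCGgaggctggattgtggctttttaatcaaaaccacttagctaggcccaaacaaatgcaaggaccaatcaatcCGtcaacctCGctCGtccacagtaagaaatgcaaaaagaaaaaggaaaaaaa
Hoxa13: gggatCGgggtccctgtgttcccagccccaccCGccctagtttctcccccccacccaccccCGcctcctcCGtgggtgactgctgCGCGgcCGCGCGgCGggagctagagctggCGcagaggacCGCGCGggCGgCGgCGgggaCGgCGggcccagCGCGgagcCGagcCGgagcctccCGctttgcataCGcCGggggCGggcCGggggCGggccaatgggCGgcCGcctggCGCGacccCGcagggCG
The Hoxa13 stretch held 35 CpG, against 8 in that of Hoxc4 and 6 in that of Hoxd8. It was chosen because its promoter had the most CpG of the Hox genes without a mark. Its excess over the other stretches was thus fixed by the choice. Other promoters of Hox genes without a mark had as few as 4 CpG in 300 bases. The other 3 come from the older set of peaks, on the build NCBIM37 (mm9), and are read from that genome. They are the part of the single Hoxa peak that lies before a Hoxa7 transcript, at chr6:52171854-52172119 (minus strand, 266 bases, 13 CpG), and the 300 bases around the summits of a peak inside the intron of Hotair, at chr15:102776185-102776484 (plus strand, 7 CpG), and of a peak between Hoxd13 and Hoxd12, at chr2:74510880-74511179 (plus strand, 18 CpG).
Hoxa peak: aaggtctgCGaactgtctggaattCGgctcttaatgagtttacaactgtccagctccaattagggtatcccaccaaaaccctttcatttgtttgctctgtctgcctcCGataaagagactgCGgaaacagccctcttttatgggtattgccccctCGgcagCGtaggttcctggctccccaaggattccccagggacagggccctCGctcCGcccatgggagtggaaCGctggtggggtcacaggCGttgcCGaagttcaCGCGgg
Hotair summit: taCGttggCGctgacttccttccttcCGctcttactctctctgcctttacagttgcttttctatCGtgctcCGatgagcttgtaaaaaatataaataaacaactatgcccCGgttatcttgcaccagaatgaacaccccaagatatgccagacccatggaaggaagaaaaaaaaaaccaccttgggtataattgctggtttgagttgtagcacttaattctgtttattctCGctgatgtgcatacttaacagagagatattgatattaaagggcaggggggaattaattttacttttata
Hoxd13-Hoxd12 summit: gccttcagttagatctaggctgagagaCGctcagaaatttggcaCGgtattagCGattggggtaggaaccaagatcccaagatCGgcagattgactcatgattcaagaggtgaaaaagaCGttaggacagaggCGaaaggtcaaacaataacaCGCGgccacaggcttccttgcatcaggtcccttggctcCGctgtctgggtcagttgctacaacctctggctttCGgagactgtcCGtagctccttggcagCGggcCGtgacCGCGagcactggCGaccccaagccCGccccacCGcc

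Most Hox genes had no H3K4me3 at their 5' ends in these cells, and those that had it were mostly in the Hoxc cluster. A gene is called marked when peaks of both replicates reach to within 1000 bp of an annotated 5' end of it. By this rule 6 of 39 Hox genes (15.4%) were marked, against 49.5% of all 21535 protein-coding genes with a known strand. The marked genes were Hoxc4, Hoxc6, Hoxc9 and Hoxc10 out of 9 Hoxc genes, Hoxb13 out of 10 Hoxb genes, Hoxd8 out of 9 Hoxd genes, and none of 11 Hoxa genes. A peak of both replicates over the gene or within 1000 bp of it, wherever it fell, was found for 11 of 39, against 57.9% of all genes. A peak of both replicates lay over a 5' end itself for 5 of 39, against 26.0% of all genes.

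**Figure D1:**
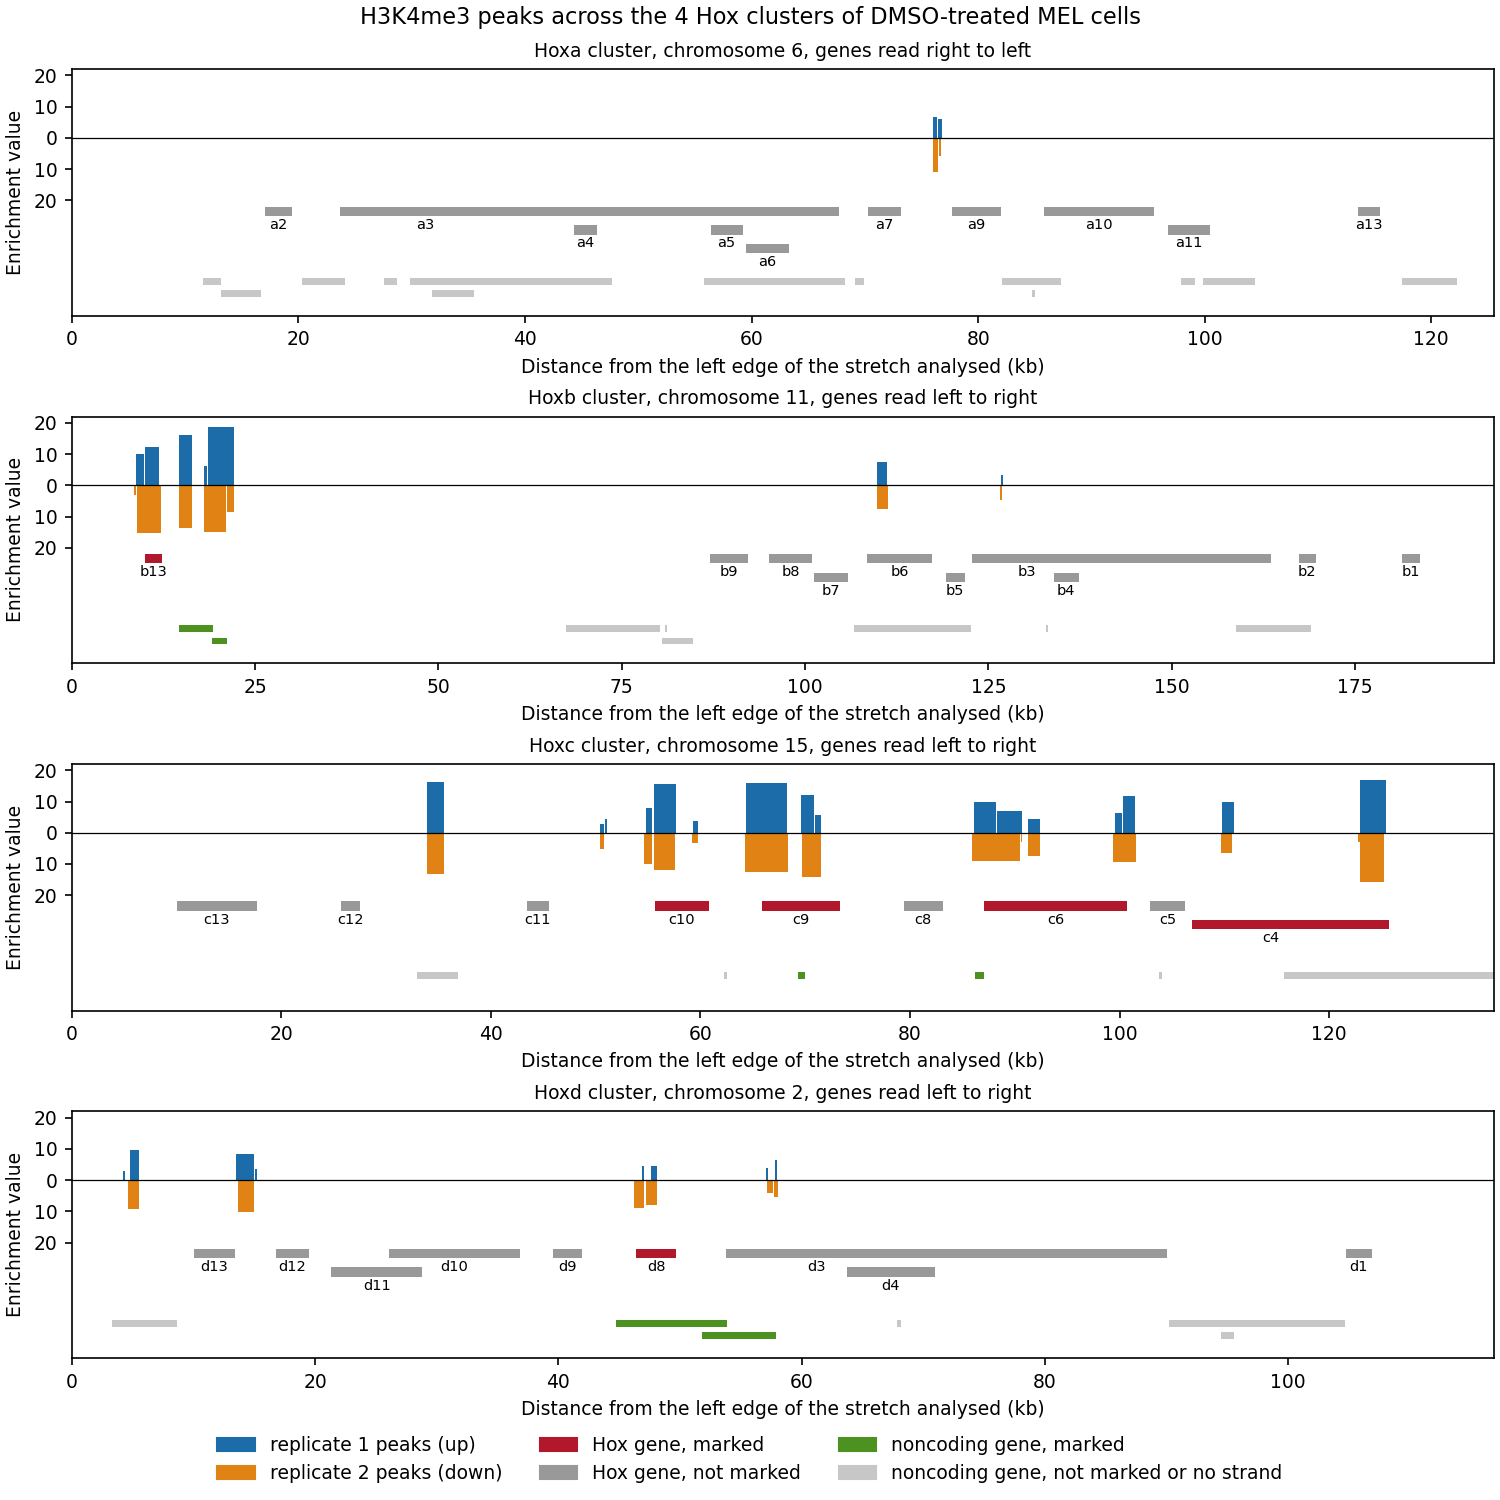
Peaks of replicate 1 (upward) and replicate 2 (downward) along the 4 Hox clusters, drawn at their deposited enrichment value (vertical axis, scale not stated by the authors) against distance in kb from the left edge of the stretch analysed. Boxes below are the Hox genes named in the text (letter and paralog number) and, lower, noncoding genes. Peaks run through much of Hoxc, with 12 regions found in both replicates, while Hoxa holds a single pair of narrow ones.

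Peak strength is given below as the enrichment value that the authors deposited with each peak, a number whose scale they do not state and which ranks the peaks of a set. The 33 peaks of replicate 1 in the clusters had values of 2.75 to 18.8 with a median of 7.06, against a median of 5.51 over all its peaks. The 29 peaks of replicate 2 had values of 2.94 to 15.9 with a median of 8.82, against 5.31 over all its peaks. The cluster peaks were also wider, with median widths of 777 and 919 bp in replicates 1 and 2, against 458 and 437 bp over all peaks. The clusters differed in this. In Hoxd the median value was 4.59 in replicate 1 and 8.40 in replicate 2, with median widths of 211.5 and 816.5 bp, and the Hoxa peaks had median widths of 324 and 339 bp.

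The Hoxc cluster, on chromosome 15, carried the densest marking. It held 16 peaks in replicate 1 and 14 in replicate 2, which covered 22157 bp (16.3%) and 22961 bp (16.9%) of its 135726 bp. When the chromosomes were divided into consecutive stretches of the same length, from the first to the last gene, 0.0402% of 19905 stretches had more bases under peaks in replicate 1 and 0.0603% in replicate 2. Here and below, such stretches were not matched for the number of genes in them. The marking was not continuous. The longest stretch without a peak ran from the margin past Hoxc13 and Hoxc12, 33876 bp in replicate 1 and 33893 bp in replicate 2, and neither gene was marked. Hoxc13, which acts in hair follicles, was 23876 and 23893 bp from a peak and Hoxc12 was 8181 and 8198 bp from one.

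Within Hoxc, the posterior genes Hoxc13 to Hoxc11 were unmarked, Hoxc10 and Hoxc9 were marked, and from Hoxc8 to Hoxc4 unmarked and marked genes alternated. Hoxc10, known for a role in lumbar motor neurons and hindlimb patterning, had values of 15.7 in replicate 1 and 11.9 in replicate 2 (mean 13.8 ± 2.68, SD). Its peaks began 57 and 144 bp before the 5' end and ended 1952 and 1945 bp after it. Hoxc9, which specifies thoracic motor neurons, had values of 16.0 and 12.5 (mean 14.3 ± 2.48, SD). Its peaks were the widest single peak of the clusters in replicate 1, at 3864 bp, and 4133 bp wide in replicate 2. They reached from 1545 and 1661 bp before the 5' end to 2318 and 2471 bp after it. A further region inside Hoxc9, 3718 bp past its 5' end and over the antisense gene Gm36878, had values of 12.1 and 14.3. These neighbouring genes, Hoxc10 and Hoxc9, were followed by Hoxc8, a gene of brachial motor neurons and the skeleton, which had no peak nearer than 6681 bp in replicate 1 and 6522 bp in replicate 2.

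Hoxc6, which acts in brachial motor neurons and mammary gland, had lower values of 9.84 and 9.04 (mean 9.44 ± 0.565, SD). Its peaks lay on both sides of the 5' end, from 1006 bp before it to 1097 bp after it in replicate 1 and from 1165 bp before it to 3433 bp after it in replicate 2. With the next peaks inside the gene, joined across gaps of up to 1000 bp, they formed the widest domain of all 4 clusters, 6360 bp in replicate 1 and 6506 bp in replicate 2 (chr15:102997220-103003579 and chr15:102997061-103003566). The end of Hoxc6 held another region with values of 11.7 and 9.44, which came to 1411 bp in replicate 1 and 1329 bp in replicate 2 of the 5' end of Hoxc5. Hoxc5 was therefore unmarked at 1000 bp. Hoxc11, a hindlimb and posterior gene on the other side of Hoxc10, was 7008 and 7014 bp from a peak.

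Hoxc4, a gene with known expression in lymphoid cells, had the highest values of any Hox gene, 16.8 in replicate 1 and 15.9 in replicate 2 (mean 16.4 ± 0.637, SD). RefSeq gives it a pair of 5' ends, and the mark was at the inner one. The peaks ran from 290 and 278 bp before that end to 2197 and 1945 bp after it, and so contained the whole Hoxc4 stretch printed above. Nearer the outer 5' end, a region 2698 bp past it had values of 9.71 and 6.46 but no peak reached within 1000 bp. The call for Hoxc4 therefore rests on the inner 5' end. The median of the mean values of the 6 marked Hox genes was 13.8, against 13.4 over all 10654 marked protein-coding genes.

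**Figure D2:**
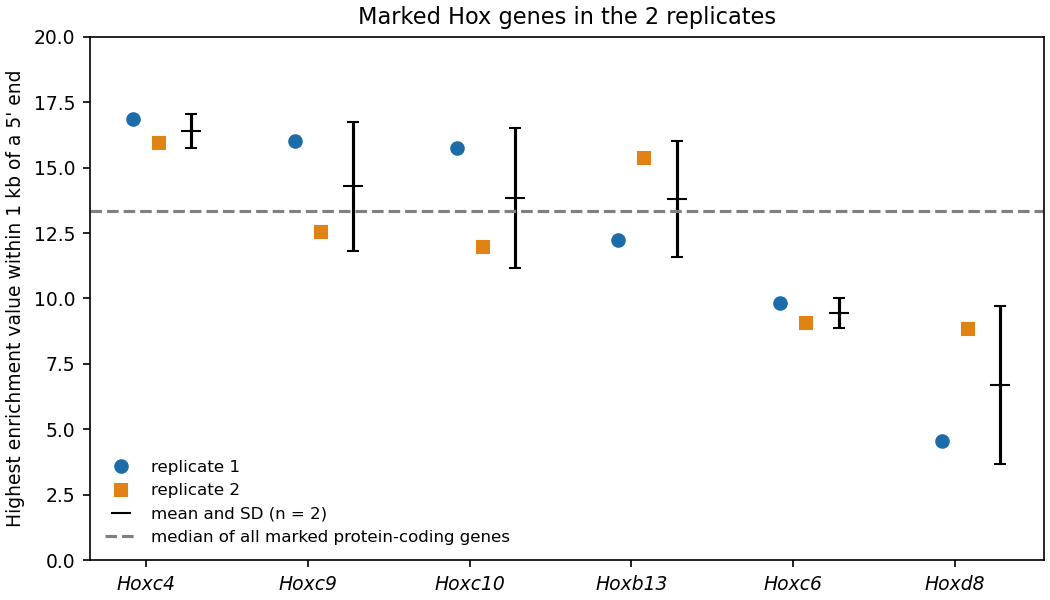
Highest deposited enrichment value (vertical axis, unstated scale) within 1 kb of a 5' end for the 6 marked Hox genes in replicate 1 (circles) and replicate 2 (squares), with mean and SD (n = 2). The dashed line is the median of all marked protein-coding genes, 13.4, and 4 of the Hox means lie above it while Hoxc6 and Hoxd8 lie below.

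In the Hoxb cluster, on chromosome 11, the mark was gathered at the posterior end. Its 7 peaks in either replicate covered 10223 bp (5.27%) in replicate 1 and 11200 bp (5.78%) in replicate 2, and 5.66% and 4.97% of consecutive stretches of its length had more. Hoxb13, the posterior member known for its part in prostate and tail development, had values of 12.2 in replicate 1 and 15.4 in replicate 2 (mean 13.8 ± 2.22, SD). The peak began 52 bp before the 5' end in replicate 1, which had a separate peak farther upstream, and 1130 bp before it in replicate 2. Hoxb13 is set apart from the rest of its cluster by a long gap, and 2 strong regions lay inside that gap. The region at chr11:96198872-96200759 had values of 16.2 and 13.5, and the one at chr11:96202374-96206387, at the 5' ends of the noncoding genes Gm30134 and Gm11538, had values of 18.8 and 14.8. The last was the strongest peak of any Hox cluster in replicate 1, and 2.34% of that replicate's peaks had a higher value.

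The other 9 Hoxb genes were unmarked. From the end of those regions, no peak was found for 87769 bp in replicate 1 and 87744 bp in replicate 2, the longest empty stretch of the 4 clusters, with Hoxb9, Hoxb8 and Hoxb7 inside it. Hoxb8, which holds myeloid progenitors immature when overexpressed, had its nearest peak at 12249 and 12227 bp. A pair of weaker regions followed. One, with values of 7.35 and 7.73, lay inside Hoxb6 at 1340 bp in replicate 1 and 1318 bp in replicate 2 past its 5' end, in a stretch also covered by the antisense gene Hoxb5os. The other, in Hoxb3, had values of 3.43 and 4.57. Hoxb5 was 7599 and 7377 bp from a peak, Hoxb4, which promotes blood stem cell self-renewal, was 7002 and 7105 bp from one, and the anterior Hoxb2 and Hoxb1 were 40367 to 54584 bp from one.

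The Hoxd cluster, on chromosome 2, held 8 peaks in replicate 1 and 6 in replicate 2, and they covered 3622 bp (3.10%) and 4637 bp (3.97%). More bases were covered in 15.2% of stretches of its length in replicate 1 and 11.7% in replicate 2. Hoxd8 was its marked gene, with values of 4.56 and 8.82 (mean 6.69 ± 3.01, SD), the lowest and the most unequal of the marked Hox genes. In replicate 1 the peak was 167 bp wide and began 475 bp past the 5' end, while in replicate 2 it was 767 bp wide and began 136 bp before it. The mark at the 5' end of Hoxd8 itself was thus seen in replicate 2 and not in replicate 1. A second region in Hoxd8, 825 bp past the 5' end, had values of 4.62 and 7.97.

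The stronger Hoxd regions lay away from Hox 5' ends. The region at chr2:74671747-74673212, between the limb and digit genes Hoxd13 and Hoxd12, had values of 8.32 and 10.2 and overlapped no annotated gene. Its distance to the 5' end of Hoxd12 was 1801 bp, and the 5' end of Hoxd13 was 3522 and 3625 bp from a peak. A region at chr2:74662860-74663742, beyond Hoxd13 and inside the noncoding gene Gm31790, had values of 9.69 and 9.36. Evx2, a homeobox gene at that edge of the cluster, was unmarked, with a peak value of 2.86 within 1000 bp in replicate 1 and none in replicate 2. A pair of small regions inside Hoxd3 had values of 3.76 and 3.98, and of 6.37 and 5.41, at the 5' end of the antisense gene Hoxd3os1. From there to the far margin, past Hoxd4 and Hoxd1, no peak was found for 58905 bp in replicate 1 and 58880 bp in replicate 2. Hoxd9, Hoxd10 and Hoxd11 also had no peak within 6138 bp in replicate 1 or 6346 bp in replicate 2.

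The Hoxa cluster, on chromosome 6, was nearly empty. Peaks covered 648 bp (0.516%) of its 125514 bp in replicate 1 and 678 bp (0.540%) in replicate 2. Of 21524 consecutive stretches of that length, 35.3% had more covered bases in replicate 1 and 34.8% in replicate 2. The median stretch had 0.0% covered in either replicate. As the stretches were not matched for genes, they do not show how common such low cover is where genes are dense. The peaks formed a pair of narrow regions side by side, at chr6:52221376-52221824 with values of 6.79 and 11.0 and at chr6:52221858-52222154 with values of 5.98 and 5.90. They lay between the 3' end of Hoxa9 and the 5' end of Hoxa7 annotated on mm10. That 5' end was 2849 bp from a peak in replicate 1 and 2803 bp in replicate 2. A longer Hoxa7 transcript of the older annotation is described below with the mm9 set. No peak was found on either side, over 76055 bp in replicate 1 and 76009 bp in replicate 2 on the anterior side.

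The Hoxa genes best known in blood had no mark at their 5' ends. Hoxa9 was 5216 and 5263 bp from a peak, and Hoxa10, which also acts in blood progenitors and in the uterus, was 12785 and 12832 bp away. Hoxa5 and Hoxa6 were 12704 to 16835 bp away, Hoxa3 was 8355 and 8309 bp away and Hoxa11 was 23656 and 23703 bp away. Hoxa13, a gene of digits and the urogenital tract at the posterior end, was 38726 and 38773 bp from a peak. Toward the anterior end, Hoxa2 and Hoxa4 were 29673 to 56591 bp from one.

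Grouped by paralog number over all 4 clusters, 1 of 12 anterior genes (paralogs 1 to 4) was marked, 3 of 15 central genes (5 to 9) and 2 of 12 posterior genes (10 to 13). No paralog number had more than 1 marked gene. Of the 6 marked genes, 4 were in Hoxc. A cluster holds 9 to 11 Hox genes and a paralog number 2 to 4, and the genes of a cluster all differ in number. These counts therefore cannot tell whether marking went with the cluster more than with the paralog number, and no test of this was made.

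The peaks were counted by position as well. Peaks of both replicates that touched were merged into 30 regions, of which 25 held both replicates, 3 held replicate 1 and 2 held replicate 2. Of the 25, 8 lay within 1000 bp of a Hox 5' end and 6 of these covered it, the one at Hoxd8 through replicate 2 only. The other 17 comprised 9 inside a Hox gene, 4 inside only another gene, and 4 with no annotated gene under them. Both Hoxa regions were of the last kind by the mm10 annotation, which gives Hoxa7 a single 5' end. In the older annotation on mm9, a longer Hoxa7 transcript starts under the single Hoxa peak of the older set. Positions were not converted between the builds. In the clusters most regions thus lay outside the windows at annotated Hox 5' ends. Regions at inner or outer 5' ends that the mm10 annotation lacks count as outside. The same share over the whole genome is not given here, so this is not shown to be particular to the clusters.

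A few noncoding genes of the clusters were marked. Of 27 long noncoding genes, 24 had a known strand and 6 of these were marked, against 18.6% of 9960 such genes. Gm30134 and Gm11538 shared the Hoxb region described above, with 18.8 in replicate 1 and 14.8 in replicate 2. Gm36878, antisense inside Hoxc9, had 12.1 and 14.3, and Gm29905, antisense and just before Hoxc6, had the same values as that gene, 9.84 and 9.04, because a single peak covers both. In Hoxd, Gm38462 had 4.62 and 8.82 and Hoxd3os1 had 6.37 and 5.41. Of 20 genes antisense to the Hox genes, 5 were marked, and since H3K4me3 peaks carry no strand, a peak shared by a Hox gene and an antisense gene cannot be assigned to either.

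Hotair, the long noncoding RNA between Hoxc12 and Hoxc11 that was linked to Polycomb in human cells, was an exception in position. A peak with values of 16.3 and 13.3 lay inside the gene, at chr15:102945007-102946692, but 1254 bp in replicate 1 and 1318 bp in replicate 2 from its annotated 5' end. Hotair was therefore unmarked by the rule. Hoxb5os, Gm30528 and Gm31790 likewise had a peak in the gene and none called at a 5' end, Gm31790 because its strand is not known here. In Hoxa, Hottip, which in human cells brings MLL complexes to the posterior HOXA genes, Hotairm1, described in human myeloid cells, and Hoxaas2, Hoxaas3, Hoxa11os and Mira had no peak within 1000 bp and none over the gene. The same was true of Gm15050, 5730596B20Rik, Gm52902, LOC115490410, Gm53, Gm51876, Hoxb3os, Gm14424 and Haglr and of the pseudogene Gm11539. Hotairm2 and LOC115490409 had no known strand and no peak over the gene.

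The clusters also hold 6 microRNA genes, and no hairpin had a peak within 1000 bp of its 5' end. The share over all microRNA genes is not given here, so this is not shown to be particular to the Hox clusters. Several of these microRNAs are known to target Hox messages from their own or another cluster, as miR-196a does with Hoxb8. Their mature 5p sequences from RefSeq fall into groups by seed, bases 2 to 8, in capitals.
mmu-miR-10a-5p: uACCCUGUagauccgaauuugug
mmu-miR-10b-5p: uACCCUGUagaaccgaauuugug
mmu-miR-196a-5p: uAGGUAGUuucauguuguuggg
mmu-miR-196b-5p: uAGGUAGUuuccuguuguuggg
Members of a seed group lie in different clusters, Mir10a in Hoxb and Mir10b in Hoxd, and Mir196a-1 in Hoxb, Mir196a-2 in Hoxc and Mir196b in Hoxa. The hairpin nearest to a peak was Mir196a-2, between Hoxc10 and Hoxc9, at 2137 bp in replicate 1 and 2021 bp in replicate 2. Mir615, in Hoxc5, followed at 2313 and 2231 bp. Mir10a was 5900 and 6003 bp away, Mir196b 8011 and 8058 bp, Mir10b 9833 and 9808 bp, and Mir196a-1 28990 and 28968 bp. A microRNA's own transcript can start far from its hairpin, and such starts are not annotated in the table used here.

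The replicates gave nearly the same picture of the clusters. In replicate 1, 30 of 33 cluster peaks had a counterpart in replicate 2 (90.9%, with a 95% Wilson interval of 76.4 to 96.9% for counting error only), against 84.6% of all its peaks. In replicate 2 it was 27 of 29 (93.1%, interval 78.0 to 98.1%), against 80.9% of all its peaks. Over all 4 clusters 36650 bp were covered in replicate 1 and 39476 bp in replicate 2, and the bases under peaks of both made up 84.7% of those under either. That share was 89.5% in Hoxc, 87.1% in Hoxb, 77.7% in Hoxa and 58.2% in Hoxd. Hoxd was thus the cluster where the replicates differed most.

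Over the 25 regions with both replicates, the log2 enrichment values had a Pearson r of 0.839 and the values a Spearman rho of 0.882, given as a description over regions that share their libraries. The median log2 ratio of replicate 1 to replicate 2 was 0.02, with a range of -0.96 to 0.59. Replicate 1 was higher in 13 regions and replicate 2 in 12, and 0 regions differed by more than 2-fold. The replicates did differ for single genes, Hoxd8 most of all.

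**Figure D3:**
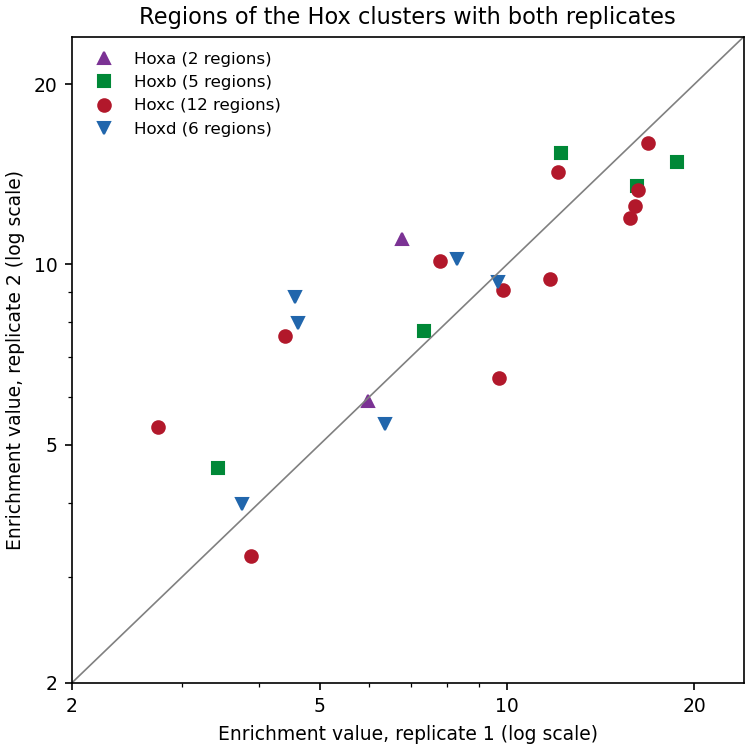
Deposited enrichment values of the 25 regions found in both replicates, replicate 1 on the horizontal axis and replicate 2 on the vertical (both log scales), by cluster. The grey line marks equal values, and the points follow it from 2.75 to 18.8.

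The promoter sequences of Hox genes were not poor in CpG. RefSeq's promoter table, 250 bases before to 50 after a 5' end, held 24 promoters of 22 Hox genes, and had a median of 14.5 CpG per 300 bases in them, against 13.0 over 21263 promoters of all protein-coding genes. The 22 promoters of unmarked Hox genes had a median of 17.5, with a range of 4 to 45, against 4.0 for the promoters of all unmarked genes and 21.0 for those of all marked genes. Hoxa13 had 45 CpG, and 2.10% of all promoters had more. Hoxd13 had 37, and 6.47% had more. Both were without a peak in either replicate. The 2 marked Hox genes with an entry, Hoxc4 with 9 and Hoxd8 with 6, had fewer CpG than most of the unmarked ones. Hoxa4, Hoxb2, Hoxb3, Hoxb5, Hoxb6, Hoxb7, Hoxb9, Hoxb13, Hoxc5, Hoxc6, Hoxc8, Hoxc9, Hoxc10, Hoxc11, Hoxc12 and Hoxc13 had no entry.

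**Figure D4:**
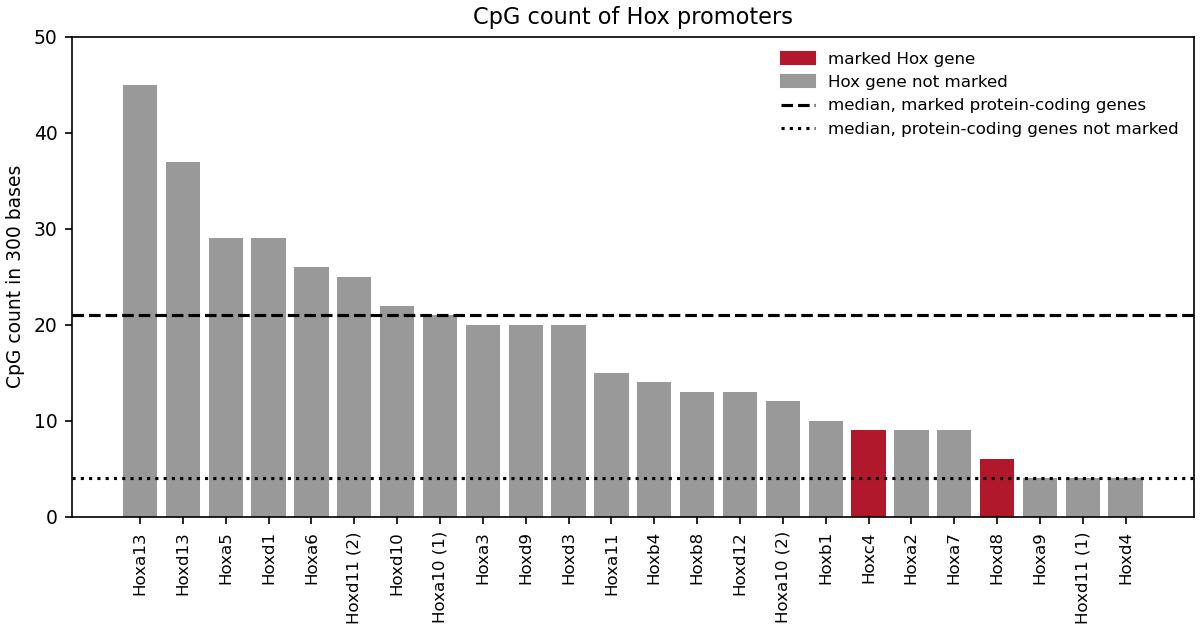
CpG count (vertical axis, per 300 bases) of each of the 24 Hox promoters in the RefSeq table, marked genes in red and unmarked genes in grey; a number in brackets tells promoters of 1 gene apart. The dashed line is the median for all marked protein-coding genes (21.0) and the dotted line that for all unmarked ones (4.0), and 19 of the grey bars rise above the dotted line.

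Short motifs were looked for on both strands of the same windows. The GATA-type letters AGATAA were in 0 of 24 Hox promoters, against 9.65% of all promoters, and TGATAA was in 3 of 24 (12.5%), Hoxb8, Hoxd8 and Hoxd12, against 7.60%. The MEIS-type letters TGACAG were in 2 of 24 (8.33%), Hoxa2 and Hoxa3, against 18.7%. The letters TGATTNAT, read by PBX with a HOX protein, were in 2 of 24 (8.33%), Hoxa2 and an inner promoter of Hoxd11, against 2.75%. The E-box CACGTG was in 5 of 24 (20.8%) against 7.84%, the KLF-type letters CACCC in 16 of 24 (66.7%) against 59.5%, and TATAAA in 4 of 24 (16.7%) against 12.6%. Each of these is a match of letters only.

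The other HOX-related homeobox genes listed here were unmarked and the listed developmental regulators largely so, while most listed genes for HOX cofactors were marked. Of 15 other HOX-related homeobox genes, such as Cdx1 and Cdx2, which switch on Hox genes in the early embryo, 0 were marked. Of 85 developmental regulators of the Fox, Sox, Pax and Tbx families, 20 were marked (23.5%). The TALE-class cofactors that bind DNA with HOX proteins are encoded by homeobox genes too, and 7 of 9 of these were marked (77.8%). By the same rule 49.5% of all protein-coding genes were marked. Pbx2 had values of 14.9 and 25.3, Pbx3 16.8 and 23.1 and Meis1 11.3 and 12.3, while Pknox2 had a peak in the gene and none at the 5' end. The lists were chosen with results of these data known, so their counts describe them and test nothing.

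All 14 genes listed for trithorax and MLL complexes and their partners were marked, against 49.5% of all protein-coding genes. Among them was Kmt2a, which encodes the MLL methyltransferase, with values of 12.4 and 20.7. Aff1, a fusion partner of MLL in leukaemia, had 23.0 and 17.8, and Dpy30, a core subunit of the methyltransferase complexes, had 19.7 and 16.0. Of 26 Polycomb genes and their demethylase counterparts, 25 were marked, against the same 49.5%. Phc1 of the Polycomb repressive complex 1 had 23.4 and 25.8, and Kdm6a, which removes methyl groups from lysine 27, had 23.4 and 21.3. Phf1 had a peak in the gene and none at its 5' end.

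**Figure D5:**
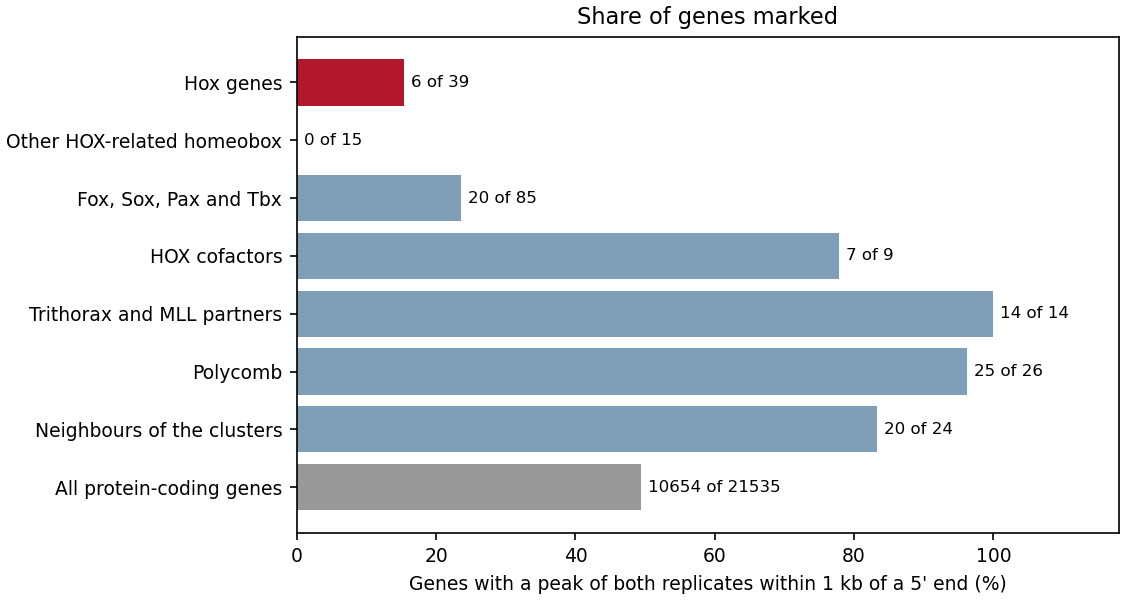
Share of genes marked by H3K4me3 peaks of both replicates within 1 kb of a 5' end (horizontal axis, percent), for Hox genes at the top, 6 comparison lists and all protein-coding genes at the bottom. Hox genes stood at 15.4%, against 49.5% of all protein-coding genes.

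Genes just outside the clusters were mostly marked. Of the 24 protein-coding genes nearest the clusters, 3 at each end of each, 20 were marked (83.3%), against 49.5% of all protein-coding genes. They were 5 of 6 around Hoxa, 5 of 6 around Hoxb, 6 of 6 around Hoxc and 4 of 6 around Hoxd. Those marked were Cbx3, Snx10, Skap2, Hibadh and Tax1bp1 by Hoxa, Atp5g1, Calcoco2, Ttll6, Snx11 and Cbx1 by Hoxb, Atf7, Atp5g2, Calcoco1, Smug1, Cbx5 and Hnrnpa1 by Hoxc, and Atp5g3, Lnpk, Mtx2 and Hnrnpa3 by Hoxd. Their mean values ran between 7.04 for Calcoco2 and 22.1 for Hnrnpa3. Unmarked were Skap1, Gm50595, and the homeobox genes Evx1 and Evx2, which lie at the posterior ends of Hoxa and Hoxd. Evx1 and Evx2 are also counted among the other HOX-related homeobox genes above. Lnpk and Mtx2, on either side of Hoxd, had 17.5 and 14.1, and 14.1 and 18.6, in replicates 1 and 2. Cbx5 and Hnrnpa1 face away from a common promoter and share their values.

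Most listed marker genes of the labelled lineage were marked, but often with low values. Of 12 erythroid marker genes, 11 were marked, against 49.5% of all protein-coding genes, and the beta-globin gene Hbb-bs was the exception. The highest means were at Klf1, with 20.7 and 21.3, and at Gata1, with 21.1 and 15.0. The median of the mean values of the 11 was 9.33, against 13.4 over all marked protein-coding genes. The alpha-globin gene Hba-a1 had 5.61 and 4.25, and Slc4a1 had 3.97 and 4.51. Of 11 markers of other blood cells, 2 were marked, the megakaryocyte genes Pf4 with 15.9 and 17.5 and Itga2b with 5.47 and 4.98, while Cd34 of stem cells was not.

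The older set of peaks, deposited for the series on mm9 with its own enrichment scale, allowed transcripts, exons and introns of GENCODE M1 on NCBIM37 to be used. It held 16 peaks in the clusters, 9 in Hoxc, 4 in Hoxb, 2 in Hoxd and 1 in Hoxa. Within 1000 bp of a transcript's 5' end it marked 6 of 39 Hox genes, against 47.2% of 22225 protein-coding genes. These were Hoxc4, Hoxc6, Hoxc9, Hoxc10 and Hoxb13, as above, with Hoxa7 in place of Hoxd8. The Hoxa peak, chr6:52171349-52172119 in that build, contains the 5' end of a longer transcript, Hoxa7-005, and its summit fell in an exon and coding sequence of Hoxa7. The same summit rule placed the peak of Hoxb13, the peak at the inner 5' end of Hoxc4 and the second peak of Hoxc9 in coding sequence. The other Hoxc4 peak had its summit in an intron, as did those at the 5' ends of Hoxc10, Hoxc6 and Hoxc9. The last peak of Hoxc6 had its summit in an untranslated exon, the Hotair peak in an intron of the gene annotated there as Gm16258, and both Hoxd peaks lay outside any annotated gene.

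By the median peak, CpG was denser under these peaks than along the cluster in Hoxa, Hoxb and Hoxc, but not in Hoxd. Hoxa held 1 peak, with 6.49 CpG per 100 bp, against 2.74 along the Hoxa cluster. The median of the Hoxc peaks was 3.20 (range 1.57 to 7.19) against 2.00 along the cluster, so not every Hoxc peak was above it. The median of the Hoxb peaks was 3.05 against 1.99. In Hoxd the median was 2.60 for the 2 peaks, against 2.63 along the cluster, so there the peaks were no richer in CpG than their surroundings. The clusters with the most CpG along their length, Hoxa and Hoxd, were those with the least H3K4me3.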

How the data were processed

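H3K4me3 ChIP-seq peaks of 2 biological replicates of MEL cells (2% DMSO, 5 days, size range 150 to 350 bp per the labels) were used as the authors deposited them. There was a set per replicate on mm10, a pooled set (45937 peaks), a replicated set (37550 peaks) and an older set of 15810 peaks on mm9. Per the notes deposited beside the files, a replicate's set was made from its own alignments, and the replicated set from the pooled and single sets. The aligner, peak caller, thresholds and control are not given in the sources used here. A peak's enrichment value is the deposited score of unstated scale in the signal column, and a display score and the summit offset were also deposited as score columns. Each peak's p-value and q-value were deposited as −log10 by the authors. Read counts were not used here, so depth is unknown, and intervals cover counting error only.

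Peaks of the autosomes, X and Y were joined to RefSeq GRCm38 genes. Strand came from RefSeq's promoter table (17492 genes) or GENCODE M1 by symbol (3649) or synonym (394), and 352 genes without strand entered no count. A gene's 5' ends are those of the promoter table plus the outer end of the gene. The design called for all annotated 5' ends, which holds for mm9 transcripts, while on mm10 inner starts are known only where that table has them. An overlap of at least 1 bp counted, and peaks were joined across gaps up to 1000 bp. Sequences are from RefSeq (GRCm38.p6) and the NCBIM37 genome. Hox and noncoding cluster genes are named, and of other lists the 2 marked genes with the highest mean and the first 2 unmarked by name, plus the neighbours. Some genes chosen this way are counted but not reported here. Meis1, Kmt2a and the Fox, Sox, Pax and Tbx list were added after their values were seen. The members and lists were chosen with earlier results of these data known. The marking rule was tested on simulated data. Alternatives were other windows, gaps, margins, overlaps, peak thresholds and sets, and each replicate left out. Scripts used Python 3.11.15, pandas 2.3.3, numpy 2.4.6, scipy 1.17.1 and matplotlib 3.10.9.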

Additional observations from a re-analysis of the deposited data

How the results depend on the processing

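The count of marked Hox genes was 6 of 39, and it was 6 in either replicate alone. It was 11 over the gene span plus 1000 bp, where Hoxa gave 1 (Hoxa9), Hoxb 3 and Hoxd 3. A 2000 bp window gave 9 of 39, against 50.6% of all genes, with 5 in Hoxc (with Hoxc5), 2 in Hoxb (with Hoxb6) and 2 in Hoxd (with Hoxd12). Hoxd gave 0 when the peak had to cover the 5' end, at a minimum −log10 q of 5 (that of the replicate 1 peak at Hoxd8 is 4.39) and among the 20000 strongest peaks of each replicate. The older mm9 set on NCBIM37 transcripts, where peaks and annotated 5' ends both differ, gave 0 in Hoxd and 1 in Hoxa (Hoxa7). Hoxa7 had 5 annotated 5' ends there, against 1 on mm10. That set had no peak over Hoxd8. Which of these differences moved the counts was not tested. The mean number of cluster peaks, 31.0, was 17.5 among the 20000 strongest, and the covered length, 38063 bp, was 35863 bp without the 10 kb margins. Shared peaks, 92.0% on average, were 64.8% at a reciprocal overlap of 50% and 94.0% at a −log10 q of 5. The widest domain, 6433 bp, was 4232 bp with no gap joined and 13456 bp with gaps of 3000 bp, then in Hoxb. Of the other homeobox genes, 1 (Evx2) was marked with 2000 bp. With either replicate left out, peaks were 29.0 to 33.0, covered length 36650 to 39476 bp, the widest domain 6360 to 6506 bp, other homeobox genes 0 to 1, and neighbours 20 to 21. The other 80 repeats of the main counts stayed within 1.5 times or the replicates' spread, as did 24 of single genes' values. No paired analysis was possible because there is 1 group. Depth is unknown, so a gene without a peak may carry the mark below detection.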
